A study of Mus musculus with 23 samples.

Results

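Among 53607 gene rows measured in mouse embryonic stem cells, 65 differed in the same direction between libraries labelled ERF knockout and ERF wild type in each of 4 settings, with RAS present or deleted and in 2 media. The genes were chosen by their measured expression. CPM values (counts scaled to the same total in every library) were taken over each library without the predicted gene Gm26917, group means were put on the scale log2(mean CPM + 1), and a gene was kept where all 4 ERF differences reached at least 0.8 in 1 direction. Genes higher in the ERF knockout numbered 35 and genes lower numbered 30. 5 genes named in the rule were left out. Each of the 65 passed the filter on low counts that left 20372 genes for testing. The differences that chose the genes are given as a description and were not tested.

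ERF is a repressor of transcription from the ETS family, a group of factors that bind DNA around a GGAA core. When RAS signalling is active, the kinase ERK phosphorylates ERF and moves it out of the nucleus, so that ERF acts mainly where ERK is quiet. Embryonic stem cells leave the naive state as ERK activity rises, and the MEK inhibitor in naive medium holds that activity down.

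By their labels all cells carried H-Ras-/- and N-Ras-/- together with a floxed remaining RAS gene and Ubiq-CreERT2, a tamoxifen-dependent recombinase made in all cells. RAS-deleted libraries came from cells given 4-hydroxytamoxifen for 6 days, and effects of the drug and of the deletion cannot be told apart. The naive medium 2iL contains LIF with inhibitors of the kinases MEK and GSK3, and the medium FA holds FGF2 and Activin A, used for 48 hours toward epiblast-like cells. Each of the 8 combinations of ERF, RAS and medium had 3 libraries, apart from the undeleted ERF wild type in FA with 2. ERF knockout and ERF wild type are given as genotypes of the same Raslox/lox background, with no count of clones, so a difference between clones and the loss of ERF cannot be told apart. Nothing in the labels says that libraries of a group came from separate derivations, so p-values measure the spread between these libraries.

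Library totals ran from 16.2 to 29.9 M counts. Erf RNA was higher under the ERF knockout label in 2iL with RAS present, at 125 to 174 CPM against 91.9 to 111 CPM, and the ranges overlapped in FA, at 67.9 to 85.4 CPM against 71.8 to 94.6 CPM. With RAS deleted it was at 163 to 224 CPM against 110 to 118 CPM in 2iL and at 66.8 to 89.4 CPM against 89.7 to 98.2 CPM in FA. Counts for Hras (15.1 to 34.2 CPM) and Nras (6.71 to 68.1 CPM) were also present in all 23 libraries, so gene-level counts do not check these labels. How Erf was disrupted is not given in the sources used here, and a count over the whole gene would miss a short lesion. Replicate 1 of all 4 ERF wild type groups had raised chromosome 8 expression, by 0.287 to 0.368 (median log2 difference from the other libraries of the group). Replicate 1 of all 4 ERF knockout groups had raised chromosome 11 expression, by 0.100 to 0.194. Replicate 2 had the lowest Nras level in each of the 4 ERF knockout groups, at 6.71 to 25.2 CPM. Tbc1d9 was the only one of the 65 on chromosome 8, and Timp2, Krt19, Gm11427 and AI662270 lay on chromosome 11. All 7 embryonic stem cell markers had a mean of at least 1 CPM in every group. Their sum was 2741 to 3323 CPM over the 2iL libraries. In FA it was 2754 to 3301 CPM with RAS deleted and ERF wild type and 1254 to 1458 CPM in the other groups. The ERF groups in FA with RAS deleted thus differed in these markers. Feeder fibroblast markers summed to between 3.04 and 11.6 CPM.

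The 35 higher genes stood apart from the ERF wild type by a median of 1.49 (log2 scale) in 2iL with RAS present and 1.35 with RAS deleted, and by 1.05 in FA with RAS present and 1.30 with RAS deleted. For the 30 lower genes the medians were -1.92, -2.20, -1.29 and -2.29 in the same order, while the medians of all tested genes lay between -0.04 and 0.02. FA with RAS present gave the smallest of the 4 differences for 21 of the 35 higher genes and 21 of the 30 lower genes. It is also the setting whose wild type group had 2 libraries.

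The range of the ERF knockout libraries did not overlap that of the wild type libraries in any of the 4 settings for 32 of the 35 higher genes, against 3.37% of tested genes. The exceptions were Emp2, Krt18 and Obox4-ps19. For the lower genes this held for 30 of 30, against 2.82% of tested genes. Since the rule chose on the same contrasts, nothing is read from these counts. Just inside the threshold, by their smallest difference, lay Arhgef28 at 0.80 and Nlrp14 at 0.81, and just outside lay F3 at 0.79 and Coq2 at 0.787. In the lower direction Tbc1d9 and AI662270 lay inside at 0.801 in absolute value, and Rhox5 at just under 0.80 and Cd24a at 0.793 lay outside.

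Membership rested on single libraries for many genes. When each of the 23 libraries was left out in turn, 11 of the 35 higher genes and 15 of the 30 lower genes met the rule every time. Without replicate 1 of the undeleted ERF wild type in FA, 27 genes were higher, of which 21 were among the 35, and the losses included Krt18, Mael, Mov10l1 and Stag3. Without replicate 2 of the same group 49 genes were higher, 31 of them among the 35, and Lama1 and Flt1 were lost. Tagln, Krt8, Krt19, Timp2 and Tdrkh stayed in all 23 fits, as did the 9 Xlr genes, Peg3 and Ifitm1.

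**Figure D1:**
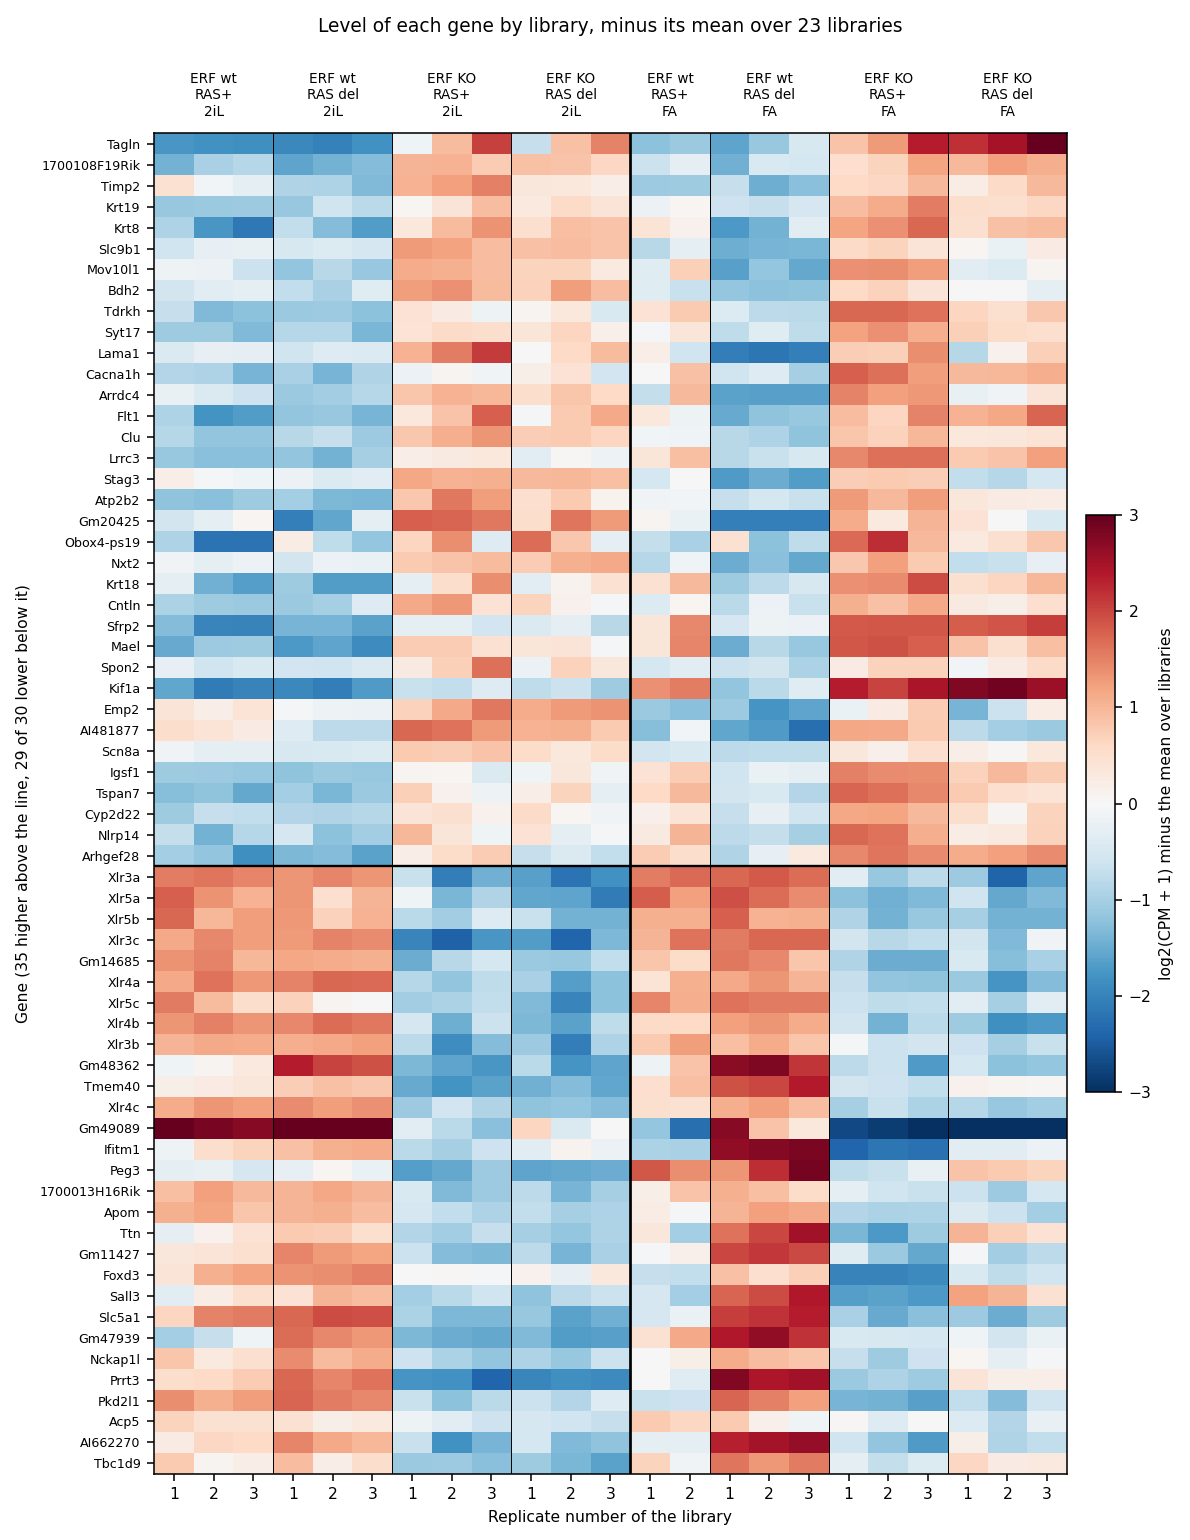
Level of 64 of the 65 genes (rows) in each of the 23 libraries (columns), as log2(CPM + 1) minus the gene's mean over libraries, with red above and blue below that mean. The 35 genes above the black line are redder in the ERF knockout columns and the 29 of the lower set below it bluer, in both media.

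**Figure D2:**
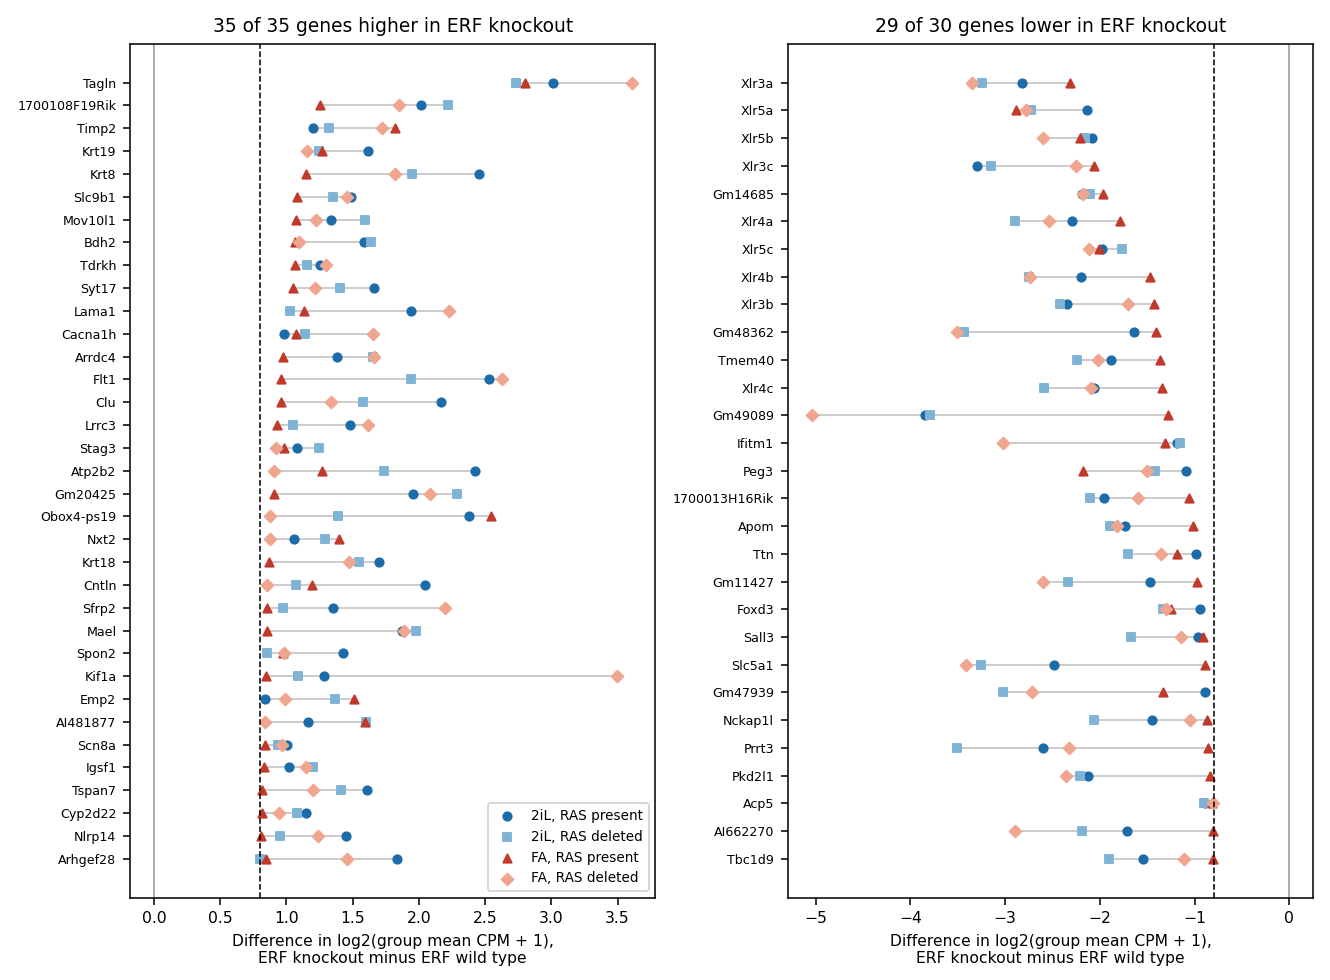
Difference in log2(group mean CPM + 1), ERF knockout minus ERF wild type, for 64 of the 65 genes in the 4 settings, with 1 symbol per setting and the dashed line at the threshold of 0.8. The triangles for FA with RAS present lie nearest the line for 21 of the 35 higher genes.

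Of the 21 genes on the matrix and adhesion list, 4 belonged to the higher set: Krt8, Krt18, Krt19 and Lama1. They are described with Tagln and Timp2, which are on no list. Krt8 (chr15:101996698-102004482, GRCm38) and Krt18 (chr15:102028180-102032027) encode the keratin pair that makes the intermediate filaments of simple epithelia, and they are neighbours with no annotated gene between them. Krt8 stood at 4.69, 2.24 and 1.44 CPM in wild type libraries in 2iL with RAS present and at 12.5, 20.1 and 26.6 CPM in the knockout. With RAS deleted in 2iL the wild type values were 5.52, 3.42 and 2.41 CPM and the knockout values 14.2, 19.4 and 18.6 CPM. In FA with RAS present they were 13.5 and 10.9 CPM against 23.5, 27.0 and 34.6 CPM, and with RAS deleted 2.31, 3.04 and 7.55 CPM against 14.2, 18.8 and 20.0 CPM. Every knockout library lay above every wild type library of its setting, and the smallest log2 difference (1.15) was in FA with RAS present.

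Krt18 stood at 8.11, 3.08 and 2.53 CPM in wild type libraries and at 8.08, 14.9 and 28.3 CPM in knockout libraries in 2iL with RAS present, so these groups overlapped through replicate 1 of each. In the other settings the knockout libraries were all higher. Its 4 differences were 1.70 and 1.55 in 2iL and 0.87 and 1.48 in FA, RAS present before RAS deleted. The Krt18 level rose from replicate 1 to 2 to 3 in the knockout in all 4 settings. Krt19, a further keratin of simple epithelia, was at 0.137 to 0.181 CPM in wild type and 1.62 to 3.76 CPM in knockout libraries in 2iL with RAS present. In FA with RAS present it was at 1.22 and 1.62 CPM against 3.77 to 6.28 CPM, and the groups were apart in all 4 settings. Of the 75-base windows of Krt8, 23.5% also occur in other genes, among them the pseudogene Krt8-ps, which makes its count less certain. Trophoblast, which also makes these keratins, has 8 other markers that summed to 193 to 209 CPM in wild type and 113 to 118 CPM in knockout libraries in 2iL with RAS present. These sums were also lower in every knockout library in the other 3 settings, and their part in the keratin differences was not tested.

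Tagln (chr9:45929619-45936058), which encodes the actin-binding protein transgelin of smooth muscle, had the largest smallest-of-4 difference among the higher genes. It was at 0.361 to 0.456 CPM in wild type libraries in 2iL with RAS present and at 3.49, 8.34 and 19.2 CPM in the knockout. With RAS deleted in FA the wild type libraries stood at 0.636, 1.21 and 2.47 CPM and the knockout libraries at 21.2, 26.7 and 38.3 CPM. The groups did not overlap in any setting, although the knockout libraries in 2iL were far apart from each other. Of its windows, 53.3% also lie in the overlapping genes Gm48529 and Pcsk7 on either strand, and the strand setting of the quantification is not given in the sources used here.

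Lama1 (chr17:67697259-67822647), the laminin alpha 1 chain of embryonic basement membranes, was at 107, 121 and 118 CPM in wild type libraries in 2iL with RAS present and at 297, 419 and 622 CPM in the knockout. It was at 33.5, 31.5 and 34.0 CPM against 78.5, 158 and 238 CPM in FA with RAS deleted. The ranges were apart in all 4 settings, and replicate 3 was the highest knockout library in each. Timp2, an inhibitor of matrix metalloproteinases, was at 3.43 to 6.38 CPM against 9.96 to 14.3 CPM in 2iL with RAS present and at 1.51 and 1.56 CPM against 7.15 to 9.59 CPM in FA with RAS present.

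Lama1 is also among the markers of primitive and visceral endoderm, and the sum of the other markers was higher in the knockout in 2iL. Summed over the 10 markers without Lama1, wild type libraries in 2iL with RAS present held 41.6 to 68.1 CPM and knockout libraries 244 to 700 CPM, most of it Col4a1 (group means 31.0 and 388 CPM). Afp, Ttr and Apoa1 stayed at or under 0.23 CPM in both. The defining factor Gata6 stood at 6.46 and 7.55 CPM and Gata4 at 7.67 and 14.7 CPM in those groups. Dab2 (2.94 and 17.7 CPM), Pdgfra (2.51 and 13 CPM), Sox17 (2.48 and 6.55 CPM) and Sox7 (0.21 and 0.83 CPM) also had higher means in the knockout. With RAS deleted in 2iL the sums were 34.8 to 46.6 CPM and 111 to 260 CPM. They overlapped in FA, at 286 to 581 CPM and 449 to 640 CPM with RAS present and at 153 to 255 CPM and 165 to 333 CPM with RAS deleted. In FA with RAS present, Gata4 (24.3 and 22.8 CPM) and Gata6 (25.5 and 23.1 CPM) had lower means in the knockout. So did Sox7 (13.9 and 10.4 CPM), Pdgfra (22.1 and 14.3 CPM) and Dab2 (91.2 and 61.9 CPM). Col4a1 (251 and 380 CPM) and Sox17 (4.61 and 5.93 CPM) had higher means there. With RAS deleted in FA each of these markers had a higher mean in the knockout. The part of endoderm-like cells in the Lama1 difference was not tested, and in bulk RNA more cells of a type and more RNA per cell cannot be told apart.

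Of the 17 further genes of the matrix and adhesion list, edgeR called 3 higher and 0 lower in 2iL with RAS present, 5 and 0 in 2iL with RAS deleted, 0 and 0 in FA with RAS present and 4 and 0 in FA with RAS deleted. In FA with RAS present 5 had a positive and 2 a negative change at an unadjusted p under 0.05, and DESeq2 was not run on the ERF contrasts. A call needed a Benjamini-Hochberg adjusted p under 0.05 and at least a 2-fold change. The shares of tested genes called higher and lower were 5.2% and 4.52%, 5.83% and 7.15%, 1.58% and 0.78%, and 8.13% and 8.48% in that order. Lamb1, the laminin beta 1 chain, rose by 2.41 ± 0.23 (log2, SE; adjusted p = 8.97e-07) and Col4a2, a collagen IV chain, by 3.08 ± 0.48 (adjusted p = 0.000184) in 2iL with RAS present.

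Of the 16 genes on the germline list, Mael and Mov10l1 belonged to the higher set, and they are described with Tdrkh, Stag3 and Nlrp14, which are on no list. Mael (chr1:166201201-166238747), Mov10l1 (chr15:88982909-89055152) and Tdrkh (chr3:94413273-94434668) encode proteins of the piRNA pathway, which silences transposons in germ cells. Stag3 encodes the meiotic cohesin subunit and Nlrp14 a protein of oocytes. Several promoters of this kind are rich in CpG dinucleotides, and the 300 bases around the RefSeq start of Mael, with CpG in capitals, are shown because germline genes of this type are commonly silenced by DNA methylation (chr1:166238695-166238994, minus strand, GRCm38.p6).
Mael: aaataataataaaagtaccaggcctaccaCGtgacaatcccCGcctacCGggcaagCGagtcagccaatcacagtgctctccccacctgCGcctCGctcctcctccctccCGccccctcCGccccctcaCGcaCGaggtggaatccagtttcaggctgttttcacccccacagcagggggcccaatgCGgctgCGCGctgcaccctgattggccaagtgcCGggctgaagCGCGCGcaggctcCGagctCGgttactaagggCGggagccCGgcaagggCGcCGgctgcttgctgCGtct
The Mael window holds 24 CpG, and over the 23 higher genes with a RefSeq window the median was 22, against 20 for the 12852 tested genes with one. No methylation was measured, so the count describes the sequence alone.

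Mael stood at 3.10, 4.47 and 4.52 CPM in wild type libraries in 2iL with RAS present and at 18.6, 18.7 and 14.9 CPM in the knockout. The values were 2.52, 2.88 and 2.15 CPM against 14.1, 14.2 and 10.3 CPM when RAS was deleted in 2iL. In FA with RAS present they were 13.9 and 30.9 CPM against 41.6, 42.5 and 39.4 CPM, and with RAS deleted 3.18, 5.52 and 4.27 CPM against 20.2, 15.1 and 20.8 CPM. No groups overlapped, but the 2 wild type libraries in FA with RAS present stood far from each other, and its smallest difference (0.85) was in that setting.

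Mov10l1 was at 16.2, 16 and 11.3 CPM in wild type and 40.0, 38.9 and 35.2 CPM in knockout libraries in 2iL with RAS present. It was at 5.14, 7.51 and 5.6 CPM against 14.2, 13.3 and 19.2 CPM in FA with RAS deleted. Tdrkh was at 1.93 to 3.51 CPM against 5.61 to 8.93 CPM in 2iL with RAS present and at 8.83 and 11.6 CPM against 23, 22.9 and 21.6 CPM in FA with RAS present. Both genes showed no overlap in any setting. Tdrkh shares 33.7% of its windows with the overlapping gene Oaz3, which makes its count less certain, since the strand setting is not known here. The most abundant of the group in 2iL was Stag3 on the CPM scale, at 65.2 to 81.4 CPM against 148 to 161 CPM with RAS present, and its differences were close to each other, between 0.92 and 1.25.

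The rest of the germline list did not move 1 way. Of its 14 further genes, edgeR called 4 higher and 3 lower in 2iL with RAS present, 4 and 3 with RAS deleted, 6 and 0 in FA with RAS present and 2 and 5 with RAS deleted. In FA with RAS present 12 had a positive and 0 a negative change at an unadjusted p under 0.05. Ddx4, a germ cell RNA helicase, rose by 1.00 ± 0.18 (log2, SE; adjusted p = 0.000212) in 2iL with RAS present, while Dazl, a germ cell translation regulator, fell by 1.22 ± 0.20 (adjusted p = 0.000166).

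Flt1, a receptor for VEGF, was at 1.09, 0.154 and 0.241 CPM in wild type and 3.95, 6.20 and 12.7 CPM in knockout libraries in 2iL with RAS present. Sfrp2, a secreted modulator of Wnt signalling, and Kif1a, a kinesin motor of synaptic vesicle transport, had their largest difference in FA with RAS deleted, at 2.2 and 3.5. Kif1a there was at 3.99, 5.47 and 7.79 CPM against 76.7, 83.3 and 65.5 CPM, the highest Kif1a values of the series. The ranges of all 3 genes were apart in every setting.

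Slc9b1, a sodium-proton exchanger of sperm, and Bdh2, a short-chain dehydrogenase, lie 43603 bases apart on chromosome 3 with Slc9b2 between them. Slc9b1 was at 5.83, 7.63 and 7.89 CPM against 23.9, 22.8 and 18.5 CPM and Bdh2 at 0.866, 1.16 and 1.26 CPM against 5.56, 6.06 and 4.24 CPM in 2iL with RAS present. Neither pair of groups overlapped. Ion channels and pumps in the higher set were Cacna1h (a T-type calcium channel), Scn8a (a voltage-gated sodium channel) and Atp2b2 (a plasma membrane calcium pump), with differences from 0.84 to 2.42. Clu, a secreted chaperone, Syt17 and Arrdc4 had differences from 0.96 to 2.16. Obox4-ps19 shares all of its windows with sister copies. Markers of 2-cell-like cells, in which Obox genes are known to be active, summed to 19.2 to 36.2 CPM in wild type and 75.8 to 227 CPM in knockout libraries in 2iL with RAS present. They summed to 43.4 to 92.6 CPM against 142 to 309 CPM in FA with RAS present, where Obox4-ps19 had its largest difference (2.54). With RAS deleted the sums overlapped in both media, and the part of such cells was not tested.

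**Figure D3:**
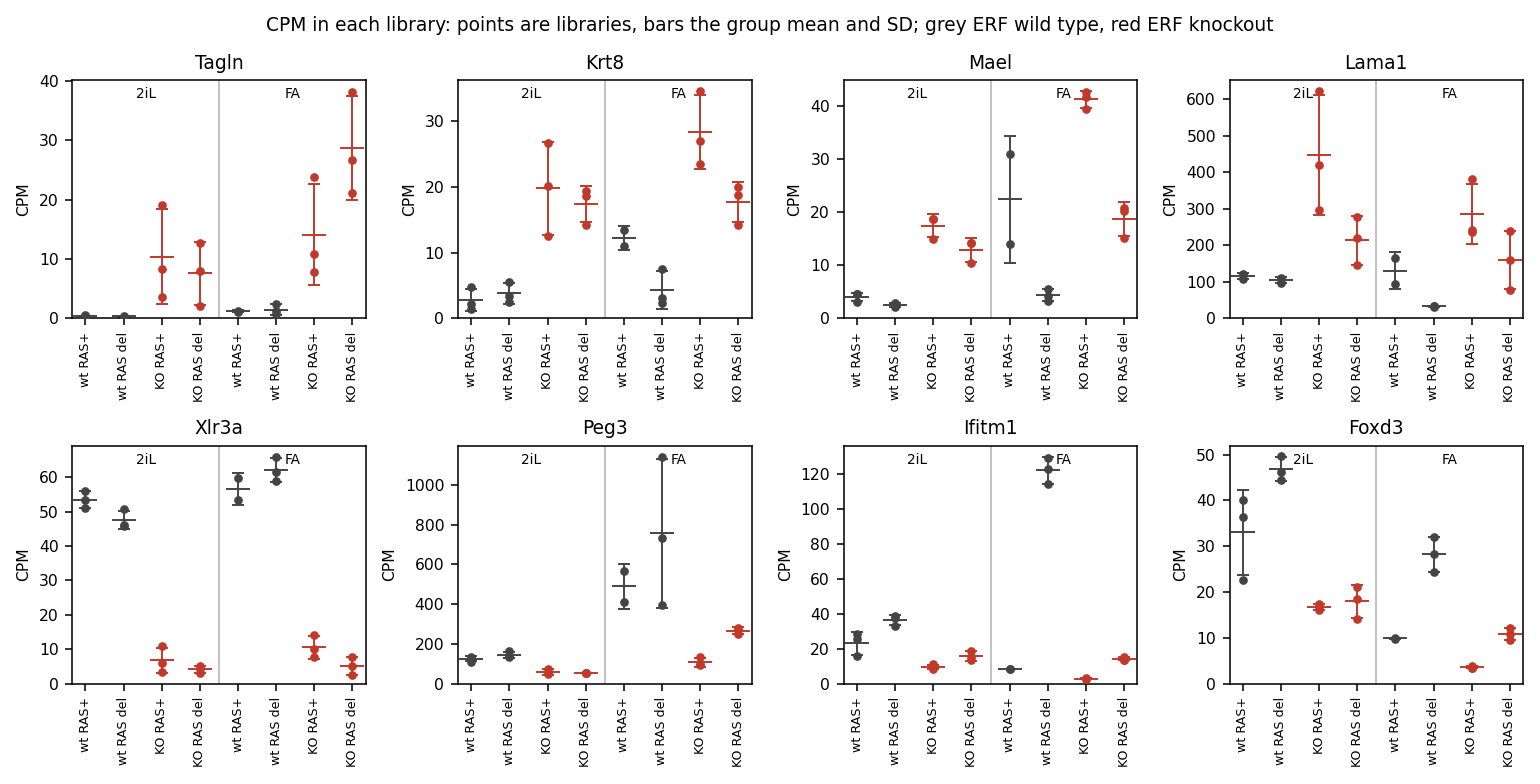
CPM of 4 higher genes (top row) and 4 lower genes (bottom row) in each library, by group, with 2iL to the left and FA to the right of the grey line, and bars for the group mean and SD. Knockout points (red) lie above the wild type points (grey) of the same RAS state and medium in the top row and below them in the bottom row.

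The lower genes were led by the Xlr3, Xlr4 and Xlr5 genes, X-linked lymphocyte-regulated genes related to the synaptonemal complex protein Sycp3, some of which are known as imprinted in mouse brain. 9 Xlr rows and the predicted gene Gm14685 lie in 1 stretch of the X chromosome (chrX:73074345-73292976, GRCm38). The row Xlr5a is annotated across most of this stretch and overlaps its neighbours. In all, 11 of the 30 lower genes were X-linked, while the X chromosome held 3.42% of tested genes and its median differences, between -0.09 and 0.04, were near those of all genes. Promoter windows of 1 member of each subfamily are shown because the subfamilies shared their direction but not their start sequence. Capitals mark CGGAAG, the ETS-type motif searched on both strands, with overlapping matches joined (GRCm38.p6, RefSeq; Xlr5a at chrX:73117653-73117952, minus strand; Xlr4a at chrX:73082458-73082757, minus strand; Xlr3b at chrX:73191929-73192228, plus strand).
Xlr5a: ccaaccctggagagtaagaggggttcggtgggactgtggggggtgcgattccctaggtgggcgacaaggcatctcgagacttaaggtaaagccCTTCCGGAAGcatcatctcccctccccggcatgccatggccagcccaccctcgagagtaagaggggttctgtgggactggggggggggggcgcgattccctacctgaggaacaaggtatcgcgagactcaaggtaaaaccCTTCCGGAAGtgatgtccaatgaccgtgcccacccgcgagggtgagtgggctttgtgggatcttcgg
Xlr4a: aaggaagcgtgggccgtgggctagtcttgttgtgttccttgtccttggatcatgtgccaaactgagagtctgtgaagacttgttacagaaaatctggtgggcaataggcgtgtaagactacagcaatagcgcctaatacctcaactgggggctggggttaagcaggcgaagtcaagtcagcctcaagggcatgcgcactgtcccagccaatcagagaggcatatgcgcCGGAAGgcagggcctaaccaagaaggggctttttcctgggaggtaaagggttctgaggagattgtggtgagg
Xlr3b: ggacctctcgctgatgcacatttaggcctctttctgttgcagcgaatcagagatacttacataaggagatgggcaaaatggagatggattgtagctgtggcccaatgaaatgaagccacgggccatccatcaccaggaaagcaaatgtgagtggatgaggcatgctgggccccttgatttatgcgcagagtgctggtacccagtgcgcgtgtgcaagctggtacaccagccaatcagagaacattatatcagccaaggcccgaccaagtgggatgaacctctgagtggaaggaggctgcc
The windows of Xlr5a and Xlr5b, identical over 255 aligned bases, each hold 4 matches. In Xlr5a each marked stretch holds a match on both strands, so sites are fewer than matches. The windows of Xlr4a, Xlr4b and Xlr4c hold 1 match each, and none was found in Xlr3a, Xlr3b, Xlr3c or Xlr5c. Several windows are close copies, with an identity of 98.6% between Xlr4a and Xlr4b and 98.1% between Xlr3b and Xlr3c. CGGAAG occurred in 6 of the 21 lower genes with a RefSeq window (28.6%), among them Xlr5a, Xlr5b, Xlr4a, Xlr4b and Xlr4c. Copies within a subfamily are not separate observations. It occurred in 13% of the 23 higher genes, against 30.7% of tested genes and 18.8% of all 27025 genes with such a window. A match is a description of the letters and not a binding site.

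Xlr3a (chrX:73086293-73097095) stood at 53.4, 56.0 and 51.1 CPM in wild type libraries in 2iL with RAS present and at 10.8, 3.49 and 5.89 CPM in the knockout. With RAS deleted in 2iL the values were 46.1, 50.6 and 45.9 CPM against 5.04, 3.04 and 4.31 CPM. In FA they were 53.4 and 59.9 CPM against 14.2, 7.61 and 9.97 CPM with RAS present, and 61.4, 66.0 and 59.0 CPM against 7.76, 2.57 and 5.24 CPM with RAS deleted. The highest knockout library, at 14.2 CPM, lay below the lowest wild type library, at 45.9 CPM.

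The Xlr rows share between 33.0% and 86.1% of their 75-base windows with other genes, chiefly Xlr copies, so the split of reads among them is uncertain and their sum was examined. The 9 rows summed to 183 ± 10.5 CPM (SD, n = 3) in wild type and 24.1 ± 8.55 CPM (SD, n = 3) in knockout libraries in 2iL with RAS present. In 2iL without RAS they summed to 176 ± 2.57 CPM (SD, n = 3) and 17.8 ± 6.35 CPM (SD, n = 3). In FA the sums were 177 ± 20.2 CPM (SD, n = 2) and 38.4 ± 8.46 CPM (SD, n = 3) with RAS present, and 206 ± 10.3 CPM (SD, n = 3) and 30.5 ± 9.91 CPM (SD, n = 3) with RAS deleted. The lowest wild type library, at 163 CPM, lay well above the highest knockout library, at 47.9 CPM.

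Within the stretch and 300000 bases on each side there were 36 gene rows, of which 10 belonged to the lower set and 14 others were tested. Of these 14, which are outside the set by its rule, 10 stayed within 0.8 in all 4 settings. In 6 of the 14 all 4 differences were below 0 (Pnma3, DXBay18, F8a, Gm5639, Gm18336 and Atp2b3). The nearest to the rule was DXBay18, inside the stretch, with differences of -1.89 and -2.36 in 2iL and -0.77 and -1.69 in FA. F8a, which lies among the Xlr genes, showed -0.71, -0.44, -0.14 and -0.74. Gm14685 shares 97.3% of its windows with DXBay18 and other copies. The 11th X-linked lower gene, 1700013H16Rik, lies elsewhere on the chromosome (chrX:53742901-53757831).

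**Figure D4:**
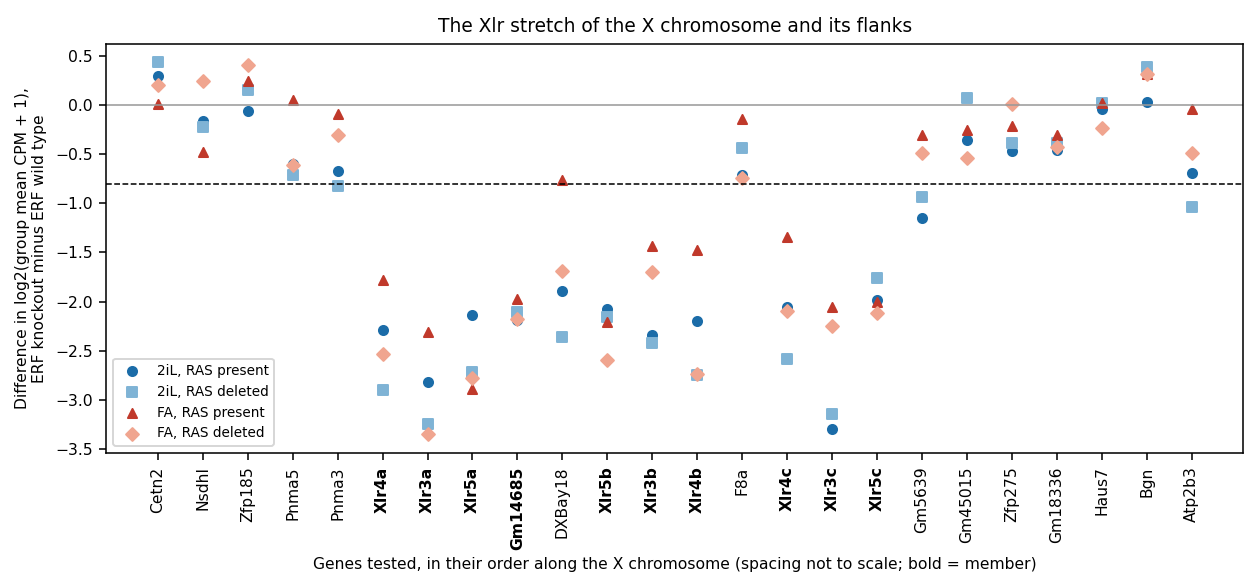
Difference in log2(group mean CPM + 1), ERF knockout minus ERF wild type, in the 4 settings for the 24 tested genes of the Xlr stretch and its flanks, in chromosomal order with equal spacing and members in bold. The 10 members lie between -1.34 and -3.35, and 10 of the 14 others stay within 0.8 of no difference throughout.

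Among the 19 lower genes on other chromosomes were an imprinted gene, a membrane protein of the interferon type and the forkhead factor gene Foxd3. Peg3 (chr7:6703892-6730431), a paternally expressed zinc finger gene, was at 130, 135 and 110 CPM in wild type and 48.8, 53 and 73 CPM in knockout libraries in 2iL with RAS present. In FA with RAS present it was at 569 and 410 CPM against 91.3, 97.3 and 135 CPM, and with RAS deleted at 395, 734 and 1143 CPM against 282, 268 and 248 CPM. The groups were apart in each setting although the wild type libraries in FA spread widely. Of the 32 further imprinted genes, edgeR called 3 higher and 4 lower in 2iL with RAS present, 4 and 6 with RAS deleted, 1 and 3 in FA with RAS present and 6 and 6 with RAS deleted. Usp29, a neighbour of Peg3 in the same imprinted domain, fell by 1.64 ± 0.30 (log2, SE; adjusted p = 0.000221) in 2iL with RAS present, and edgeR also called it lower in both settings with RAS deleted. It was not called in FA with RAS present, where Peg3 had its largest difference (-2.17) and the Usp29 libraries overlapped, at 9.22 and 11.6 CPM against 7.04, 9.73 and 7.04 CPM.

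Ifitm1 (chr7:140967221-140969825), an interferon-induced transmembrane protein also made by early germ cells, was at 15.6, 25.6 and 28.2 CPM in wild type and 9.57, 8.27 and 10.9 CPM in knockout libraries in 2iL with RAS present. The values were 32.9, 37.7 and 38.7 CPM against 13.5, 18.6 and 15.4 CPM in 2iL with RAS deleted, and 8.53 and 8.42 CPM against 2.51, 3.09 and 2.87 CPM in FA with RAS present. With RAS deleted in FA the wild type libraries stood at 114, 123 and 130 CPM and the knockout libraries at 13.6, 13.8 and 15.3 CPM. That setting held its largest difference (-3.02), and groups did not overlap in any setting. The 12 further interferon-type genes tested included 0 edgeR calls in 2iL with RAS present, where 2 had an unadjusted p under 0.05, and 0 in FA with RAS present, where 5 did. With RAS deleted edgeR called 1 higher and 1 lower in 2iL and 6 and 1 in FA.

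Foxd3, a forkhead factor of pluripotent cells, was at 22.6, 36.5 and 40.1 CPM against 16.6, 17.3 and 16.2 CPM in 2iL with RAS present and at 10.0 and 9.75 CPM against 3.44, 3.49 and 3.79 CPM in FA with RAS present. Its knockout libraries lay below all wild type libraries in every setting. Foxd3 is the only one of the 65 on the list of formative and primed epiblast genes. Of the 19 others edgeR called 3 higher and 3 lower in 2iL with RAS present, 2 and 5 in 2iL with RAS deleted, 0 and 2 in FA with RAS present and 8 and 0 in FA with RAS deleted, where their median was 0.87. Their medians in the other settings lay between -0.34 and -0.45. At an unadjusted p under 0.05, 0 of the 19 had a positive change in FA with RAS present and 1 a negative one in FA with RAS deleted.

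Slc5a1, a sodium-glucose cotransporter, was at 9.75, 18.5 and 19.2 CPM against 1.71 to 2.59 CPM in 2iL with RAS present. Its neighbour Spon2, an extracellular matrix protein 35314 bases away, belonged to the higher set. Prrt3, a proline-rich membrane protein, was at 51.5 to 66.6 CPM against 10.1 to 11.9 CPM in FA with RAS deleted. Apom (apolipoprotein M), Tmem40, Ttn (titin) and Sall3, a zinc finger factor, had differences from -0.91 to -2.24. The lincRNAs Gm47939 and Gm48362 share windows with each other, and Gm11427 overlaps AI662270, so these pairs may not be separate signals. Between genes, on the length-scaled TPM values, the highest group mean ran from 0.71 for Atp2b2 to 236 for Ifitm1.

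The response of these genes to RAS deletion was tested next, in contrasts that the rule did not use. Each shares libraries with the ERF contrasts, so the values stand side by side and are not independent of the choice. In FA with ERF wild type, edgeR called 27 of the 35 higher genes lower after RAS deletion and 0 higher, with a median log2 fold change of -1.47, against 8.33% of tested genes called lower and 8.93% called higher. DESeq2 also called 0 higher, and 0 of the 35 had a positive change at an unadjusted p under 0.05. Of the 30 lower genes, 16 were called higher and 0 lower, with a median of 1.2, and 28 of 30 had a positive fold change. DESeq2 called 16 and 0, and 0 had a negative change at an unadjusted p under 0.05. The higher genes were thus mostly lower, and the lower genes mostly higher, in RAS-deleted ERF wild type cells in FA. Embryonic stem cell markers summed to 2754 to 3301 CPM in these cells against 1432 to 1458 CPM with RAS present. Epiblast-like markers summed to 135 to 384 CPM against 743 to 787 CPM. Of the 17 naive pluripotency genes edgeR called 12 higher and 1 lower. The part of cell state in the changes of the 65 genes was not tested.

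The piRNA gene Mael fell by 2.40 ± 0.27 (log2, SE; adjusted p = 4.85e-07), Kif1a by 2.38 ± 0.21 (adjusted p = 8.73e-09) and Lama1 by 1.99 ± 0.41 (adjusted p = 0.000971) in edgeR. The keratins fell too, with Krt8 at -1.50 ± 0.46 (adjusted p = 0.0147), while Tagln (0.33 ± 0.97, adjusted p = 0.822) and Timp2 (-0.07 ± 0.37, adjusted p = 0.903) did not pass. Among endoderm markers, Gata6 (25.5 and 1.6 CPM), Gata4 (24.3 and 5.17 CPM) and Dab2 (91.2 and 10.4 CPM) had lower means with RAS deleted. The group with RAS present is given first, and their part in the Lama1 change was not tested. Gm20425 was listed at 0 in all 3 RAS-deleted libraries, and since it shares 94.0% of its windows with Trf and Srprb no fold is given. Among the lower genes, Ifitm1 rose by 3.83 ± 0.20 (adjusted p = 4.69e-12) and Prrt3 by 2.89 ± 0.17 (adjusted p = 6.70e-12), higher in 3 of 3 RAS-deleted libraries. The calls in this comparison rest on 2 libraries with RAS present. Leaving out replicate 2 of that group, or the 4 ERF wild type libraries numbered 1, leaves 1 library with RAS present. Counts of calls from such fits are not given.

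The Xlr genes did not pass. Of the 11 X-linked lower genes edgeR and DESeq2 called 0 on RAS deletion in FA with ERF wild type, 1 had an unadjusted p under 0.05, and the median was 0.29. Of the 19 on other chromosomes 16 were called higher, with a median of 2.13. Xlr3a changed by 0.11 ± 0.30 (log2, SE; adjusted p = 0.805). Whether the X-linked and other lower genes differ was not tested.

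With ERF knockout in FA, RAS deletion lowered 10 of the 35 higher genes and raised 0, with a median of -0.84, against 4.06% of tested genes called lower and 2.81% called higher. DESeq2 called 10 and 0 as well, and 1 gene had a positive change at an unadjusted p under 0.05. Of the lower genes edgeR called 6 higher and 1 lower, with a median of 0.34, and DESeq2 called 6 and 3. Of the 3 that DESeq2 called lower, 2 were X-linked, where edgeR called 0 of 11 and 2 had an unadjusted p under 0.05. Mov10l1 fell by 1.59 ± 0.22 (log2, SE; adjusted p = 4.45e-05) and AI481877 by 2.33 ± 0.29 (adjusted p = 8.21e-06), while Sall3 rose by 2.82 ± 0.28 (adjusted p = 1.15e-06). Whether RAS deletion acted differently with and without ERF was not tested on these genes, since that difference is built from the contrasts that chose them. Without replicate 1 of the ERF knockout in FA with RAS present, 12 of the 30 lower genes were called in place of 7.

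In 2iL, where MEK is inhibited, edgeR called few of them for RAS deletion. With ERF wild type edgeR called 2 of the 35 higher genes lower (Timp2 and AI481877) and 3 of the 30 lower genes higher (Gm47939, Gm48362 and Prrt3), against 0.506% and 0.692% of tested genes. At an unadjusted p under 0.05, 1 of the 35 had a positive and 6 a negative change, and 11 of the 30 a positive and 2 a negative one. With ERF knockout 2 higher genes were called lower (Timp2 and Arhgef28), against 0.142% of tested genes called lower and 0.0687% higher, and 10 had a negative and 0 a positive change at an unadjusted p under 0.05. Of the 30 lower genes 0 were called there by edgeR, 1 by DESeq2, and 5 had an unadjusted p under 0.05. Timp2 fell by 1.55 ± 0.31 (log2, SE; adjusted p = 0.00500) with ERF wild type and by 1.06 ± 0.26 (adjusted p = 0.0471) with ERF knockout. When single libraries were left out, 0 to 1 of the 35 higher genes were called with ERF knockout in 2iL and 0 to 2 with ERF wild type.

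**Figure D5:**
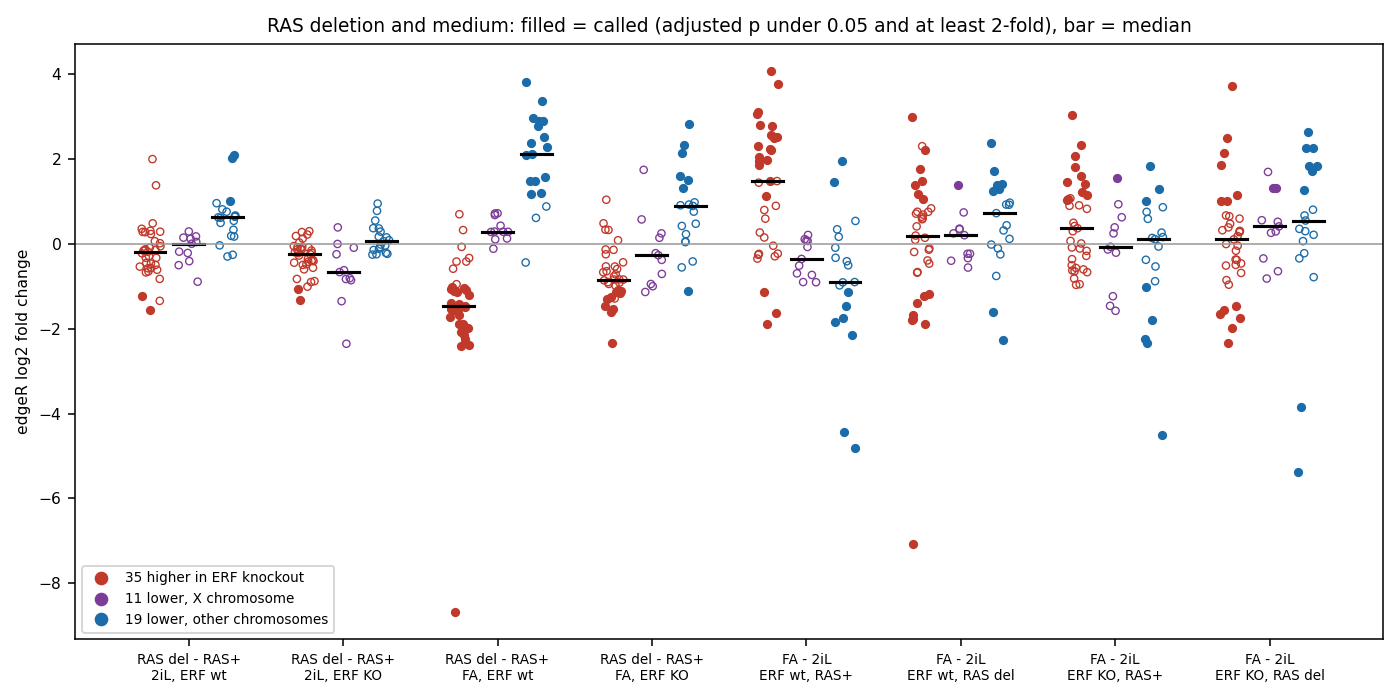
edgeR log2 fold changes of the 35 higher genes (red), the 11 X-linked lower genes (purple) and the 19 other lower genes (blue) for RAS deletion (left 4 columns) and for FA against 2iL (right 4 columns), with filled points called and black bars for medians. In FA with ERF wild type the red median is -1.47 and the blue median 2.13, while the purple median is 0.29.

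The move from 2iL to FA was the other contrast the rule did not use. In ERF wild type cells with RAS present, edgeR called 19 of the 35 higher genes up and 3 down in FA, with a median of 1.49 (log2), against 13.2% and 10.8% of tested genes. Kif1a rose by 3.77 ± 0.24 (SE; adjusted p = 3.06e-11), Igsf1 by 4.08 ± 0.39 (adjusted p = 9.03e-09), Mael by 2.48 ± 0.28 (adjusted p = 2.44e-07) and Krt8 by 2.05 ± 0.48 (adjusted p = 0.00194). Timp2 and Emp2 fell, by 1.62 ± 0.35 (adjusted p = 0.000438) and 1.88 ± 0.45 (adjusted p = 0.00199). Of the 30 lower genes 2 were called up (Peg3 and Gm47939) and 7 down, with a median of -0.51.

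With ERF knockout and RAS present, 11 of the 35 higher genes were called up and 0 down, against 12.3% and 7.46% of tested genes, and the median was 0.37. DESeq2 called the same numbers, and 7 had a negative change at an unadjusted p under 0.05. With RAS deleted 7 were called up and 8 down with ERF wild type, against 9.96% and 6.59%, and 7 up and 6 down with ERF knockout, against 14.5% and 10.4%. The lower genes gave 7 up and 2 down with RAS deleted and ERF wild type, 4 and 5 with ERF knockout and RAS present, and 9 and 2 with ERF knockout and RAS deleted. Peg3 rose in both RAS-deleted lines, by 2.37 ± 0.28 (log2, SE; adjusted p = 4.09e-06) with ERF wild type and 2.26 ± 0.29 (adjusted p = 4.31e-06) with ERF knockout. Of the 11 X-linked lower genes edgeR and DESeq2 called 0 for medium with ERF wild type and RAS present, and 2 had an unadjusted p under 0.05. For medium edgeR called 1 of the 11 higher with ERF wild type and RAS deleted, 1 higher with ERF knockout and RAS present and 2 higher with ERF knockout and RAS deleted, and 0 lower in these 3. DESeq2 called 1 higher and 0 lower, 1 and 1, and 3 and 0 in that order, and 0, 1 and 0 of the 11 had a negative change at an unadjusted p under 0.05.

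Whether the response to medium differed with RAS was tested as an interaction, added after the data were seen. With ERF wild type edgeR called 17 of the 35 higher genes lower and 1 higher (Timp2) in the medium effect with RAS deleted minus that with RAS present, against 5.3% and 6.6% of tested genes. Of the 30 lower genes 12 were called higher and 0 lower, and 0 had a negative change at an unadjusted p under 0.05. With ERF knockout 5 of the 35 higher genes were called lower and 0 higher, against 2.31% and 2.29%, with 3 positive at an unadjusted p under 0.05. There 8 of the 30 lower genes were called higher and 0 lower, with 1 negative at an unadjusted p under 0.05. DESeq2 was not run on this interaction.

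None of the 20 tested ETS factors and none of the 25 tested ERK feedback and response genes belonged to the 65. As the 65 are so small a part of the 20372 tested genes, nothing is read from this. In 2iL with RAS present edgeR called 1 of the ETS factors higher (Elk3) and 4 lower, and in FA with RAS present 0 in either direction, with 8 at an unadjusted p under 0.05. With RAS deleted edgeR called 1 higher and 4 lower in 2iL and 2 higher and 5 lower in FA. Spry4, an ERK feedback inhibitor, rose by 3.18 ± 0.28 (log2, SE; adjusted p = 1.79e-08) in 2iL with RAS present. With RAS deleted in 2iL it rose by 4.69 ± 0.35 (adjusted p = 5.94e-10). It fell by 1.25 ± 0.21 (adjusted p = 0.000749) in FA with RAS present, so the rule left it out. Of the 17 naive pluripotency genes edgeR called 1 lower in 2iL and 1 lower in FA with RAS present. With RAS deleted it called 4 lower in 2iL and 15 lower in FA. The shares of tested genes called lower were 4.52%, 0.78%, 7.15% and 8.48% in that order. In the same order edgeR called 0 of the 17 higher, while 2, 1, 4 and 1 had a positive change at an unadjusted p under 0.05.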

How the data were processed

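RNA from 23 libraries of mouse embryonic stem cells, rRNA-depleted and strand-specific per the labels' protocols, had been quantified per gene by the authors. The deposited values used were estimated counts per gene, which the authors had derived with Salmon, per the submitters' processing notes, and which were rounded to whole numbers here. The deposited TPM values (scaled by gene length by the authors) served only to compare levels between genes. The submitters' processing notes also name bcl2fastq 2.20.0, fastp 0.20.0 and the build mm10, and the strand setting is not given in the sources used here.

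Library totals were 16.2 to 29.9 M counts, of which Gm26917 held 17.6 to 27.9%, which was left out of the CPM scaling. Tests were fitted with edgeR 4.0.16 (R 4.3.3) on all 23 libraries with 1 coefficient per group, its filter on low counts, TMM scaling and robust quasi-likelihood. A call needed a Benjamini-Hochberg adjusted p under 0.05 over 20372 genes and at least a 2-fold change, and errors of fold changes are SE. DESeq2 1.42.0 was an alternative, beside other pseudocounts, thresholds, scalings, no filter, a replicate block and leaving out each library. The interaction and the fits without libraries numbered 1 were added after the data were seen. The test script was tested on simulated data. Promoter windows (250 bases before to 50 after the start, RefSeq, GRCm38.p6) and shared windows were read with Python 3.11.15, pandas 2.3.3 and Biopython 1.88, and figures drawn with matplotlib 3.10.9. Gene positions are from GENCODE on GRCm38.

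The genes and lists were chosen with earlier results of these data known. Named genes were, per direction, the 12 with the largest smallest-of-4 difference among curated symbols at 5 CPM or more, members of the lists, the 2 nearest each side of the threshold and the 2 with the largest rise and fall per RAS or medium comparison. Neighbouring members and up to 4 genes per list were named too, and Stag3, Scn8a, Clu, Apom and Ttn after their values were seen. Same-numbered libraries were not paired, since no comparison had every pair's correlation over 0.1. That correlation runs over all tested genes, so it does not show whether single genes follow the replicate number within an ERF genotype. The RAS and medium tests took same-numbered libraries as separate. Of the lower genes 1 is counted but not reported by name here.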

Additional observations from a re-analysis of the deposited data

Results flagged for a closer look

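The effect of medium differed with the RAS state for some of these genes, tested as an interaction in edgeR. With ERF wild type, Ifitm1 fell from 2iL to FA by 1.46 ± 0.19 (log2, SE; adjusted p = 1.99e-06) with RAS present and rose by 1.72 ± 0.15 (adjusted p = 8.97e-09) with RAS deleted. The difference between these changes, which run in opposite directions, was 3.175 ± 0.247 (adjusted p = 4.66e-09). In the same line 18 of the 35 higher genes and 12 of the 30 lower genes differed in their medium effect between RAS states, against 6.6% of tested genes called higher and 5.3% called lower.

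With ERF knockout, Sall3 fell by 1.01 ± 0.30 (log2, SE; adjusted p = 0.00909) with RAS present and rose by 1.83 ± 0.26 (adjusted p = 1.03e-05) with RAS deleted. The difference between these opposite changes was 2.838 ± 0.397 (adjusted p = 0.000189). There 5 of the 35 higher genes (AI481877, Nxt2, Stag3, Mov10l1 and Tspan7) and 8 of the 30 lower genes differed, against 2.29% and 2.31% of tested genes. The cause was not tested.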

How the results depend on the processing

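The number of genes that met the rule depended on its settings. With a pseudocount of 0.1 CPM 153 genes were higher and 134 lower, and with 5 CPM 6 and 12. With a threshold of 1 there were 11 and 17, and with 0.6 there were 101 and 67. When single libraries were dropped there were 27 to 49 higher and 25 to 39 lower genes. Under TMM scaling with Gm26917 kept in the totals, all 65 kept their direction in the 4 contrasts and 12 fell under 0.8. The same 12 fell under it with plain totals that hold Gm26917, so this loss is not particular to TMM. A scaling moves all genes of a library alike, so the kept directions add little. Leaving out 1 library moved the higher genes called for RAS deletion between 0 and 2 in 2iL with ERF wild type. With ERF knockout in 2iL the range was 0 to 1. In FA with ERF wild type some of these fits leave 1 library with RAS present, so no range is given. For the lower genes in FA with ERF knockout the range was 8 to 12. Without the filter on low counts 4 higher genes were called in 2iL with ERF wild type. Without that filter, with the replicate block and with DESeq2, 1 lower gene was called in 2iL with ERF knockout. The replicate block gave 27 higher and 16 lower genes for RAS deletion in FA with ERF wild type, and same-numbered libraries were not treated as pairs: the lowest correlation of a pair's deviations was -0.09 to 0.09 over the comparisons. Libraries numbered 1 did share their raised chromosome within each ERF genotype. Genes under 1 CPM are limited by depth and by the pseudocount.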
